A study of Mus musculus with 14 samples.

Results

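A set of 58 mouse genes that act in mitosis was followed in adult neural stem and progenitor cells, by poly-A RNA-seq with a strand-specific kit. The members were chosen by symbol for their function, and all 58 were found among the 53700 genes of the deposited tables. The 14 libraries form 4 groups of C57BL/6 cells. The quiescent group (4 libraries) was grown with BMP4, and its partner, the proliferating group (4 libraries), was grown with FGF and EGF. The Yme1l KO group (3 libraries) was kept in FGF and EGF and given an adeno-associated virus for Cre-GFP, while the GFP control group (3 libraries) was kept in FGF and EGF and given a GFP adeno-associated virus. The labels call the mouse of all 4 groups wild-type, although the series' design sets wild-type cells against Yme1lKO cells, so the allele that Cre acts on is not given in the sources used here. Neither is the number of animals or cultures behind a group, so the p-values speak for the spread among these libraries, part of which may be technical.

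Mitosis starts when cyclin-bound Cdk1, a kinase, becomes active. Condensin and topoisomerase II then compact the chromosomes, kinetochores built on centromeres attach them to the spindle, and a checkpoint holds back the anaphase-promoting complex until all are attached. That complex, with its activator Cdc20, marks securin and B cyclins for destruction, which frees separase to cut cohesin and lets the cell divide. Most of these genes are transcribed late in the cell cycle, and resting stem cells of the adult brain are known for low levels of their RNA.

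The total count per library ran from 6475099 to 8797750 in quiescent cells, against 8331999 to 8992709 in proliferating cells. It ran from 9053124 to 9490756 in Yme1l KO cells, against 9226080 to 10320736 in GFP control cells. Levels are given as CPM (counts scaled to a common library total), with library sizes adjusted by the TMM method, and as TPM where genes are set against each other, since TPM also divides by transcript length. Yme1l1, the mitochondrial protease that the knockout targets, averaged 24.7 ± 1.61 CPM in Yme1l KO cells and 127 ± 7.49 CPM in GFP control cells (SD, n = 3 each), a log2 fold change of -2.36 (SE 0.07, adjusted p = 5.89e-11). Markers of neural stem and progenitor cells were present in every group, with Vim at 1763, 2379, 1116 and 1439.7 CPM in quiescent, proliferating, Yme1l KO and GFP control cells, whereas Prom1 lay below 1 CPM in all 4 groups. Of 9 of these markers tested, 5 were lower and 2 higher in quiescent cells, and the list of 10 summed to 3352 to 3706 CPM in quiescent libraries, against 3816 to 4076 CPM in proliferating libraries. In Yme1l KO cells 6 of the 9 were lower and 1 was higher, with sums of 3214 to 3585 CPM in Yme1l KO libraries, against 4285 to 4409 CPM in GFP control libraries. The 8 microglial markers summed to at most 7.60 CPM and the 8 vessel and fibroblast markers to at most 18.4 CPM in any library. Of 7 astrocyte markers tested in quiescent cells, 6 were higher and 1 was lower, and the list of 8 summed to 6405 to 6623 CPM in quiescent libraries, against 4360 to 4503 CPM in proliferating libraries. In Yme1l KO cells 3 of 6 tested astrocyte markers were higher and 1 was lower, with sums of 2108 to 2266 CPM in Yme1l KO libraries, against 1923 to 1937 CPM in GFP control libraries. Of 5 oligodendrocyte lineage markers tested, 2 were higher and 2 lower in quiescent cells, with sums of 2712 to 2980 CPM in quiescent libraries, against 3654 to 4073 CPM in proliferating libraries. In Yme1l KO cells 3 of the 5 were higher, with sums of 2866 to 3237 CPM in Yme1l KO libraries, against 2297 to 2427 CPM in GFP control libraries. Of 3 neuron markers tested, 1 was lower and 1 higher in quiescent cells and none was called in Yme1l KO cells, and both ependymal markers tested were lower in quiescent cells. The list of 8 neuroblast and neuron markers summed to 61.7 to 114 CPM in quiescent libraries, against 52.0 to 76.9 CPM in proliferating libraries. It summed to 1214 to 1269 CPM in Yme1l KO libraries, against 1167 to 1262 CPM in GFP control libraries. Over all genes tested, 35.5% were lower and 29.9% higher in quiescent cells, and 26.2% were lower and 25.4% higher in Yme1l KO cells. The part of these marker differences in the results on mitosis genes was not tested.

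Mitosis genes were lower as a body in quiescent cells and in Yme1l KO cells. Together the 58 genes held 0.0774% to 0.0822% of all counts in quiescent libraries, against 0.364% to 0.378% in proliferating libraries. They held 0.363%, 0.364% and 0.237% in the Yme1l KO libraries, against 0.660% to 0.674% in GFP control libraries. No quiescent library reached any proliferating library, and no Yme1l KO library reached any GFP control library. RNA from a whole culture does not separate fewer dividing cells from less RNA per dividing cell, so these readings cannot be told apart.

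In quiescent cells 49 of the 52 members with enough counts to be tested were lower, none was higher, and 48 of them were lower by at least 2-fold (edgeR quasi-likelihood test, Benjamini-Hochberg adjusted p under 0.05). Over all 12245 genes tested, 35.5% were lower, 29.9% were higher and 10.6% were lower by at least 2-fold. The members' median log2 fold change, quiescent over proliferating, was -2.20 (range -3.06 to -0.40), against -0.01 over all genes. The 3 that did not pass were the condensin subunits Smc2 and Smc4 and the centriole kinase Plk4. The remaining 6, Cenpe, Ncapg, Kif20b, Ndc80, Knl1 and Ttk, had too few counts in this pair of groups. Over all 58 members, 42 had every quiescent library below every proliferating library, where 33.2% of all tested genes did. In the other 16, which include the 6 that were not tested, the groups overlapped.

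In Yme1l KO cells all 58 members had enough counts, 57 were lower and 1, Pttg1, was higher. Over all 12625 genes tested, 26.2% were lower and 25.4% were higher. The members' median log2 fold change, Yme1l KO over GFP control, was -1.04 (range -1.27 to 0.52), against 0.00 over all genes. Every one of the 57 had its 3 Yme1l KO libraries below its 3 GFP control libraries, where 30.8% of tested genes did, and Pttg1 had them above, where 30.5% did. The third Yme1l KO library stood apart from the other two. It was the lowest of its group for 57 of the 58 members, and its median log2 difference from the GFP control mean was -1.44, against -0.87 and -0.84 in replicates 1 and 2. Without it, 57 members were still lower and 1 higher, and the median was -0.86. The number lower by at least 2-fold rested on it, with 34 of the 58 members in the full set and 5 without replicate 3. In the full set, 2.07% of all genes tested were lower by at least 2-fold. That share was not computed without replicate 3.

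**Figure D1:**
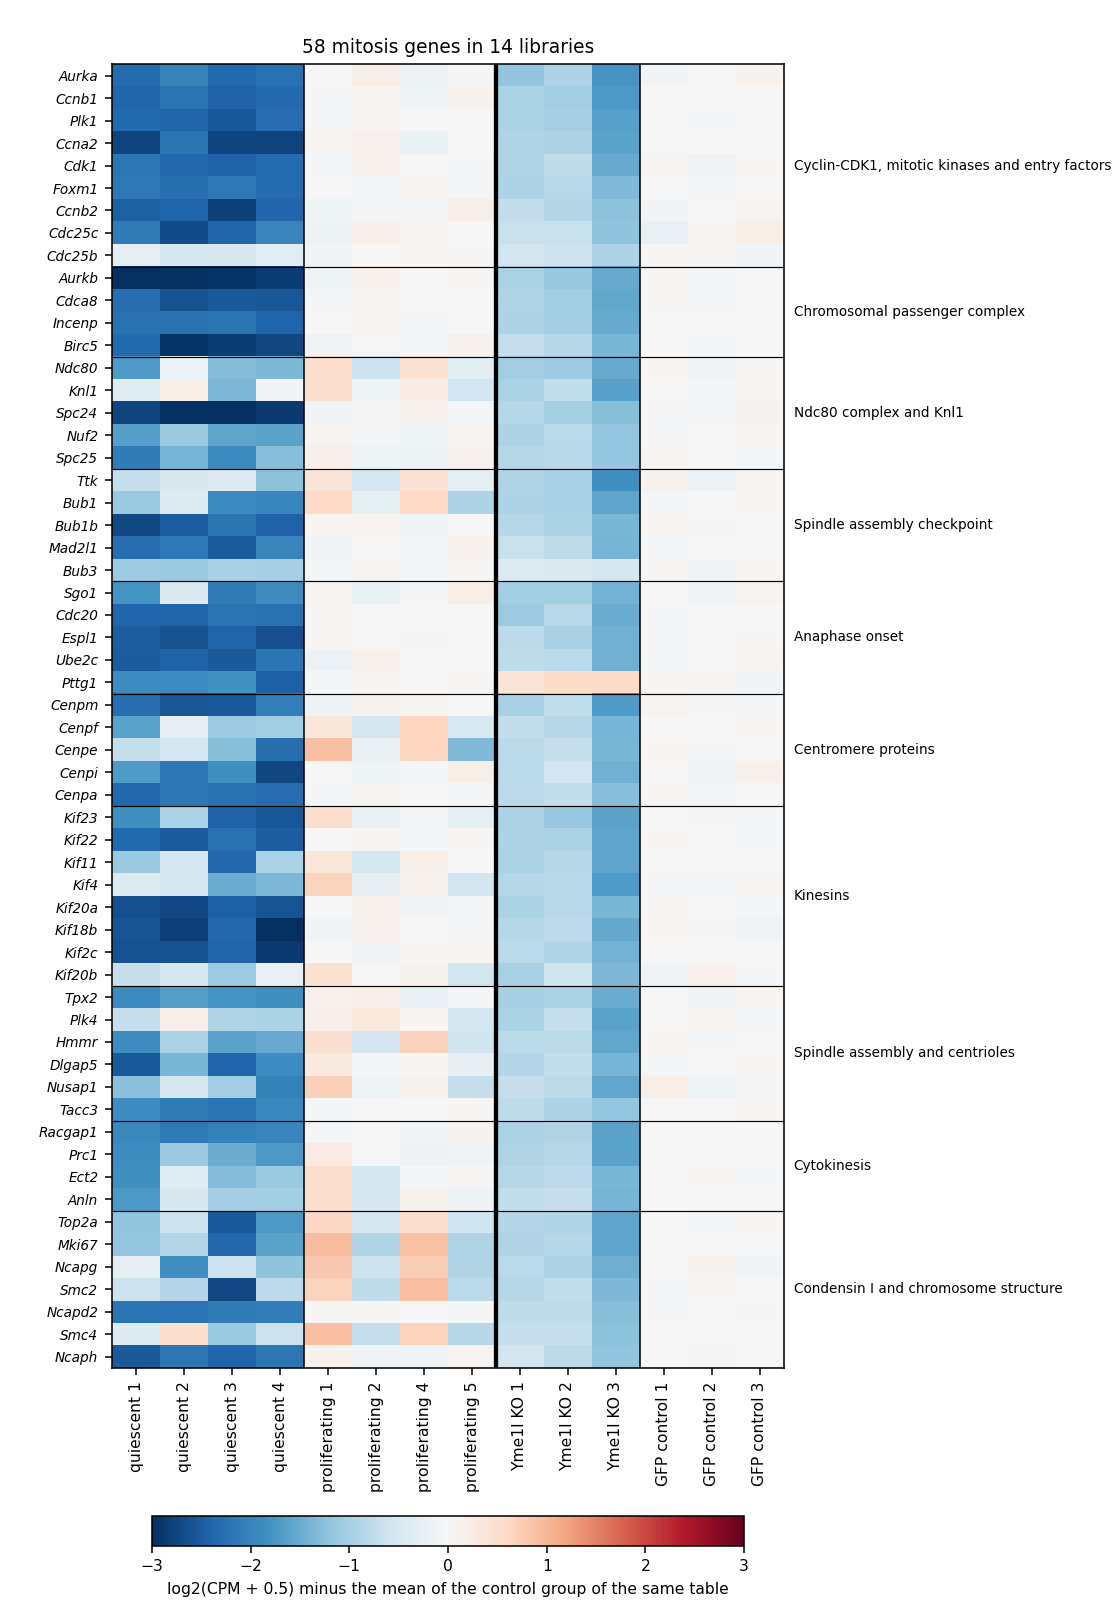
Level of each of the 58 mitosis genes (rows, grouped by role) in each of the 14 libraries (columns), as log2(CPM + 0.5) minus the mean of proliferating libraries (left block) or of GFP control libraries (right block). Blue is lower and red is higher. The third Yme1l KO library is the darkest of its group for 57 genes, Pttg1 is the only red row in Yme1l KO cells, and proliferating replicates 1 and 4 are redder than 2 and 5 for Smc2, Smc4, Ncapg, Top2a and Mki67.

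**Figure D2:**
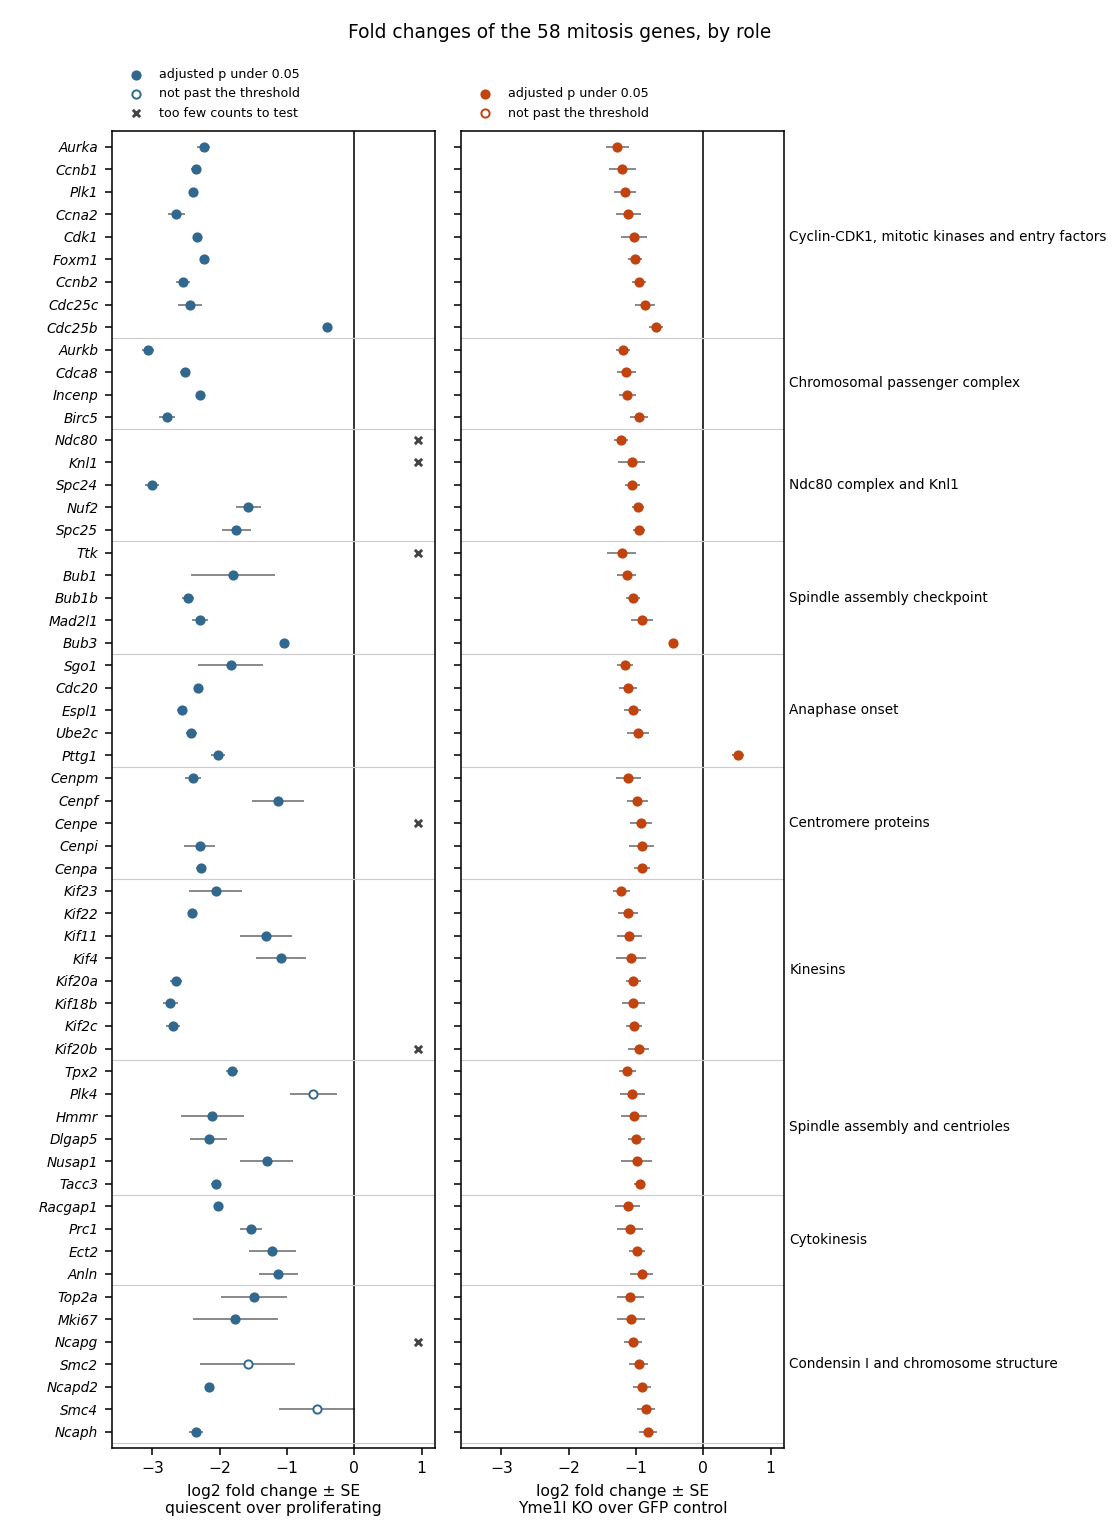
Log2 fold change with its standard error for each mitosis gene, quiescent over proliferating (left) and Yme1l KO over GFP control (right), ordered by role. Filled points passed an adjusted p under 0.05, open points did not, and crosses at the right edge mark the 6 genes with too few counts. Quiescent values spread from -3.06 to -0.40, while all Yme1l KO values except that of Pttg1 lie between -1.27 and -0.46.

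Genes of the late cell cycle are known to share short promoter words, so these words were counted in the promoters of members, which fell together. A CCAAT word is bound by NF-Y, a cell cycle homology region (CHR) word is bound by the MuvB complex, and an E2F word by E2F factors. RefSeq promoter windows of the GRCm38.p6 build, from 250 bases before to 50 after a gene's start, were matched to 48 of the 58 members by symbol. The stretches below run from 200 bases before to 20 after the start, 5′ to 3′ on the gene's strand, with every word in capitals on either strand. They are shown for both B cyclins, which fell in both comparisons, for Cdc25b, the member with the smallest fall in quiescent cells among those called, and for Pttg1, the member that rose in Yme1l KO cells.
Ccnb1: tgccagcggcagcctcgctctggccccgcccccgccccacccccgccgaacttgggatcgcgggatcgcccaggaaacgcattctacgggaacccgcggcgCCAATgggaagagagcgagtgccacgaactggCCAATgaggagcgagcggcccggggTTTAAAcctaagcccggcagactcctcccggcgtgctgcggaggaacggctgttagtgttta
Ccnb2: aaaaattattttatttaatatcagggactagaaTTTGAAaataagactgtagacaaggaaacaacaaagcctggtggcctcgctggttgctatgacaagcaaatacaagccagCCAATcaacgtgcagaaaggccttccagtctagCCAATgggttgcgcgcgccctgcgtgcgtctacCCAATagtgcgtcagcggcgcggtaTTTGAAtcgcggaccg
Cdc25b: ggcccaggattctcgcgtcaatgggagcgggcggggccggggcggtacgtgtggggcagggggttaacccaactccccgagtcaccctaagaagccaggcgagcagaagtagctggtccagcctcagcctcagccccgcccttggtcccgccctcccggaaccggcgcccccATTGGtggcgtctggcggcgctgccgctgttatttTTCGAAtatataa
Pttg1: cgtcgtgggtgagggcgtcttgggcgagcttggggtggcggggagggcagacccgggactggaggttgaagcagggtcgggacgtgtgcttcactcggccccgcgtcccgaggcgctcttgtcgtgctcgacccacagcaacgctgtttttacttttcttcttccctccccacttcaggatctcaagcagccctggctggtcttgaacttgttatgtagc
They lie at chr13:100786467-100786686 on the minus strand (Ccnb1), chr9:70421535-70421754 on the minus strand (Ccnb2), chr2:131186748-131186967 on the plus strand (Cdc25b) and chr11:43425962-43426181 on the minus strand (Pttg1). Ccnb1 holds CCAAT with its first base at -99 and at -67 and the CHR word TTTAAA at -42, counted from the start. Ccnb2 holds CCAAT at -87, -54 and -21 and the CHR word TTTGAA at -167 and at 5. Cdc25b holds CCAAT on the other strand, printed as ATTGG at -28, and TTCGAA at 8. The Pttg1 window holds none of the words searched. Nor do the windows of Mad2l1, Nuf2 and Tacc3, which were lower in both comparisons. All positions count from the start that RefSeq gives. The 50 bases after that start in Pttg1 are the first bases of the GENCODE transcripts Pttg1-204 and Pttg1-210 and stand from base 138 of Pttg1-209, and they were not found in the gene's other transcripts. Those of Ccnb1 are the first bases of Ccnb1-202 and stand from base 85 of Ccnb1-201. Those of Ccnb2 and Cdc25b were not found unbroken in any GENCODE transcript of these genes.

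CCAAT was found on either strand in 35 of 48 members (72.9%), against 43.8% of the 9724 genes tested in Yme1l KO cells that have a window and 41.1% of all 27025 genes with one. The CHR words were TTTGAA on either strand and the palindromes TTTAAA as well as TTCGAA. At least one of them was found in 41 of 48 members (85.4%), against 23.8% of tested genes and 31.9% of all. Both kinds stood in 34 members (70.8%), against 10.1% of tested genes and 12.8% of all. The E2F words, on either strand, were TTTGGCG together with TTTCCCG as well as TTTCGCG and also TTTGCCG. They stood in 8 members (16.7%), against 13.0% of tested genes and 7.65% of all. A pair of CCAAT words on the same strand with their first bases 30 to 35 apart, as in both B cyclins, was found in 8 members (16.7%), against 2.60% of tested genes and 1.36% of all. Words of different kinds overlapped once in the members' windows. The 41 members with a CHR word had a median log2 fold change of -2.11 in quiescent cells (35 tested) and -1.05 in Yme1l KO cells. The 7 without one, Cenpi, Mad2l1, Ncaph, Nuf2, Nusap1, Pttg1 and Tacc3, had medians of -2.06 and -0.92. A word is a match of letters and not a measured binding site.

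Cdk1 and the factors that switch it on were lower in both comparisons, all 9 of 9 in each. Cdk1 (ENSMUSG00000019942, chr10:69170976-69188768, minus strand, GRCm39 as in the deposited table), the kinase that starts mitosis, had the highest TPM of its role group, at 73.9, 367, 149 and 293 TPM in quiescent, proliferating, Yme1l KO and GFP control cells. Its level was 40.6, 35.6, 34.2 and 36.6 CPM in quiescent libraries, against 180, 198, 183 and 178 CPM in proliferating libraries. It was 77.2, 84.1 and 50.4 CPM in Yme1l KO libraries, against 152, 133 and 147 CPM in GFP control libraries. Neither pair of groups overlapped, and the lowest Yme1l KO value was that of replicate 3. Cdk1 was 5.03-fold lower in quiescent cells (log2 fold change -2.33, SE 0.06, adjusted p = 3.18e-14) and 2.04-fold lower in Yme1l KO cells (-1.03, SE 0.19, adjusted p = 0.00707).

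Ccnb1, the B cyclin that activates Cdk1, measured 19.2, 22.3, 18.7 and 20.1 CPM in quiescent libraries, against 99.5, 108, 93.4 and 111 CPM in proliferating libraries. Ccnb1 measured 83.3, 78.8 and 48.4 CPM in Yme1l KO libraries, against 160, 162 and 164 CPM in GFP control libraries. The GFP control values lay close together and the Yme1l KO values were all far below them. Its log2 fold changes were -2.35 (SE 0.08, adjusted p = 4.76e-13) and -1.20 (SE 0.20, adjusted p = 0.00468). Aurka, a kinase of the centrosome and spindle poles, had the largest fold change of all members in Yme1l KO cells, at 22.1, 26.5 and 14.5 CPM in Yme1l KO libraries, against 48.1, 50.4 and 54.5 CPM in GFP control libraries. In quiescent libraries Aurka lay at 14.7, 18.5, 14.5 and 15.6 CPM, against 76.1, 85.0, 66.6 and 73.6 CPM in proliferating libraries. Both differences were wider than the spread within any group. The log2 fold change of Aurka was -1.27 in Yme1l KO cells (SE 0.17, adjusted p = 0.000497) and -2.24 in quiescent cells (SE 0.10, adjusted p = 8.4e-12).

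Cdc25b (ENSMUSG00000027330, chr2:131028869-131040417, plus strand), a phosphatase that activates Cdk1, differed least among the called members in quiescent cells. It had 72.7, 60.7, 61.3 and 69.5 CPM in quiescent libraries, against 82.2, 86.4, 91.2 and 89.3 CPM in proliferating libraries. It had 25.5, 24.2 and 19.5 CPM in Yme1l KO libraries, against 38.7, 38.8 and 35.3 CPM in GFP control libraries. The groups were apart in both comparisons but by a narrow gap. The fold was 1.32-fold lower in quiescent cells (log2 fold change -0.40, SE 0.07, adjusted p = 7.29e-05) and 1.63-fold lower in Yme1l KO cells (-0.70, SE 0.10, adjusted p = 4.53e-05). Its relative Cdc25c, by comparison, had log2 fold changes of -2.45 (SE 0.18) and -0.86 (SE 0.15). Of the others, the A cyclin gene Ccna2, the B cyclin gene Ccnb2, the transcription factor Foxm1, which drives late cell cycle genes, and the kinase Plk1 fell by 2.64, 2.55, 2.24 and 2.40 on the log2 scale in quiescent cells. In Yme1l KO cells Ccna2, Ccnb2, Foxm1 and Plk1 fell by 1.11, 0.95, 1.01 and 1.16 on the log2 scale.

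The chromosomal passenger complex, which corrects faulty attachments and later directs cleavage, had all 4 of its genes lower in both comparisons. Aurkb (ENSMUSG00000020897, chr11:68936473-68942490, plus strand), its kinase, had the largest fold change of all members in quiescent cells. Its values were 8.08, 8.17, 8.95 and 9.63 CPM in quiescent libraries, against 66.5, 78.4, 71.5 and 74.7 CPM in proliferating libraries. They were 35.4, 31.3 and 23.9 CPM in Yme1l KO libraries, against 70.5, 67.0 and 69.5 CPM in GFP control libraries. No Yme1l KO library was as low as a quiescent one, although these levels come from tables quantified separately. Aurkb was 8.35-fold lower in quiescent cells (log2 fold change -3.06, SE 0.09, adjusted p = 7.96e-14) and 2.28-fold lower in Yme1l KO cells (-1.19, SE 0.11, adjusted p = 3.93e-06).

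Birc5, or survivin, which brings the complex to centromeres, had 10.5, 6.66, 7.16 and 7.81 CPM in quiescent libraries, against 50.8, 55.3, 53.6 and 60.03 CPM in proliferating libraries. Birc5 had 36.1, 32.9 and 22.7 CPM in Yme1l KO libraries, against 60.1, 58.1 and 60.3 CPM in GFP control libraries. The groups were well apart in both comparisons, with log2 fold changes of -2.79 (SE 0.12, adjusted p = 6.56e-12) and -0.96 (SE 0.13, adjusted p = 0.000215). Cdca8, or borealin, which had the highest mean TPM of the complex over all 14 libraries although Birc5 was above it in Yme1l KO and in GFP control cells, had 23.8, 18.6, 20.02 and 19.7 CPM in quiescent libraries, against 114, 120, 117 and 117 CPM in proliferating libraries. Cdca8 had 48.1, 43.6 and 30.2 CPM in Yme1l KO libraries, against 92.0, 87.0 and 90.8 CPM in GFP control libraries. It was lower in every quiescent and every Yme1l KO library, with log2 fold changes of -2.52 (SE 0.07, adjusted p = 6.9e-14) and -1.14 (SE 0.14, adjusted p = 0.00031). Incenp, the scaffold, had -2.29 (SE 0.07) and -1.13 (SE 0.13).

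The Ndc80 complex is the kinetochore's grip on microtubules, and Knl1 carries the checkpoint proteins beside it. Of these 5 genes, 3 of 3 tested were lower in quiescent cells and 5 of 5 in Yme1l KO cells. Spc24 (ENSMUSG00000074476, chr9:21666738-21671599, minus strand) had 5.66, 4.79, 4.72 and 5.16 CPM in quiescent libraries, against 38.3, 41.5, 44.5 and 38.9 CPM in proliferating libraries. Spc24 had 15.8, 14.4 and 11.8 CPM in Yme1l KO libraries, against 28.2, 27.9 and 31.3 CPM in GFP control libraries. The quiescent values were tightly grouped and far below the others. Its log2 fold changes were -3.01 (SE 0.11, adjusted p = 1.15e-12) in quiescent cells and -1.05 (SE 0.11, adjusted p = 4.89e-06) in Yme1l KO cells.

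Ndc80, the gene the complex is named for, had too few counts for the quiescent comparison, with 0, 0.934, 0.163 and 0.14 CPM in quiescent libraries, against 1.79, 0.552, 1.74 and 0.803 CPM in proliferating libraries. Ndc80 had 18.7, 18.3 and 13.6 CPM in Yme1l KO libraries, against 40.9, 36.9 and 40.4 CPM in GFP control libraries. The first pair overlapped and the second did not. Its log2 fold change in Yme1l KO cells was -1.22 (SE 0.11, adjusted p = 1.48e-06). Nuf2 and Spc25, the partners of Ndc80 and Spc24, had -1.58 (SE 0.18) and -1.76 (SE 0.21) in quiescent cells and -0.97 (SE 0.09) and -0.96 (SE 0.09) in Yme1l KO cells. Knl1 had at most 1.27 CPM in any quiescent or proliferating library and fell by 1.06 on the log2 scale in Yme1l KO cells (SE 0.20).

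The spindle assembly checkpoint, which delays anaphase, had 4 of 4 tested genes lower in quiescent cells and 5 of 5 in Yme1l KO cells. Bub3 (ENSMUSG00000066979, chr7:131161951-131173624, plus strand), which carries Bub1 and Bub1b to kinetochores, had the highest TPM of the group, with 80.8, 162, 76.5 and 103 TPM in quiescent, proliferating, Yme1l KO and GFP control cells. It had 91.7, 90.7, 99.9 and 98.4 CPM in quiescent libraries, against 188, 208, 192 and 200 CPM in proliferating libraries. It had 91.1, 90.1 and 84.0 CPM in Yme1l KO libraries, against 124, 114 and 126 CPM in GFP control libraries. Both differences were small beside those of most members and still wider than the spread within groups. Bub3 was 2.07-fold lower in quiescent cells (log2 fold change -1.05, SE 0.05, adjusted p = 5.58e-11) and 1.37-fold lower in Yme1l KO cells (-0.46, SE 0.06, adjusted p = 2.22e-05).

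Ttk, the kinase that starts checkpoint signalling, had 0.808, 1.05, 1.14 and 0.419 CPM in quiescent libraries, against 2.32, 0.994, 2.39 and 1.26 CPM in proliferating libraries. Ttk had 17.8, 16.9 and 9.05 CPM in Yme1l KO libraries, against 36.2, 30.1 and 35.5 CPM in GFP control libraries. The quiescent and proliferating values overlapped and were not tested, and the Yme1l KO values lay below all controls, by -1.21 on the log2 scale (SE 0.21, adjusted p = 0.00219). Bub1, a checkpoint kinase, had log2 fold changes of -1.80 (SE 0.63, adjusted p = 0.0249) and -1.14 (SE 0.14, adjusted p = 0.000152), and its quiescent and proliferating libraries overlapped. Bub1b and Mad2l1, which bind and block Cdc20, had -2.47 (SE 0.09) and -2.29 (SE 0.13) in quiescent cells and -1.05 (SE 0.11) and -0.92 (SE 0.16) in Yme1l KO cells.

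Genes of anaphase onset were all lower in quiescent cells (5 of 5), and 4 of 5 were lower in Yme1l KO cells. Ube2c, the enzyme that hands ubiquitin to the anaphase-promoting complex, had 23.0, 24.1, 22.6 and 28.3 CPM in quiescent libraries, against 117, 144, 133 and 133 CPM in proliferating libraries. Ube2c had 51.5, 49.8 and 31.8 CPM in Yme1l KO libraries, against 84.1, 86.0 and 91.7 CPM in GFP control libraries. The groups were apart both times, with log2 fold changes of -2.42 (SE 0.08, adjusted p = 5.64e-13) and -0.97 (SE 0.17, adjusted p = 0.0028). Cdc20, the activator of the complex, had -2.32 (SE 0.05) and -1.12 (SE 0.14). Espl1, or separase, had -2.56 (SE 0.07) and -1.05 (SE 0.13). Sgo1, or shugoshin, which protects cohesin at centromeres, had -1.83 (SE 0.49) and -1.16 (SE 0.11), from at most 2.75 CPM in any quiescent or proliferating library.

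Pttg1 (ENSMUSG00000020415, chr11:43311077-43317078, minus strand), or securin, which holds separase inactive, moved in opposite directions in the 2 comparisons. In quiescent libraries it had 15.5, 15.3, 16.1 and 10.3 CPM, against 55.6, 60.7, 57.4 and 59.2 CPM in proliferating libraries. It had 24.4, 27.1 and 27.8 CPM in Yme1l KO libraries, against 19.2, 18.9 and 17.3 CPM in GFP control libraries. Every quiescent library was below, and every Yme1l KO library above, all libraries of its partner group. Replicate 3, the lowest Yme1l KO library for the other 57 members, was the highest here. The log2 fold change was -2.03 in quiescent cells (SE 0.11, adjusted p = 1.05e-10) and 0.52 in Yme1l KO cells (SE 0.09, adjusted p = 0.000374), and 0.48 without Yme1l KO replicate 3 (adjusted p = 5.9e-05). In the authors' deposited table the log2 fold change of Pttg1, Yme1l KO over GFP control, was 0.40 with an adjusted p of 0.014.

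The transcripts of Pttg1 did not all follow the gene. Pttg1-202 had estimated counts of 126, 145 and 152 in Yme1l KO libraries, against 79.8, 59.7 and 110 in GFP control libraries. Pttg1-204, one of the transcripts that start at the window printed above, had 29.7, 25.6 and 25.9 in Yme1l KO libraries, against 11.6, 14.5 and 11.7 in GFP control libraries. Pttg1-203 had 72.0, 70.03 and 42.6 in Yme1l KO libraries, against 96.4, 75.4 and 59.4 in GFP control libraries. Pttg1-202 and Pttg1-204 were higher in every Yme1l KO library than in any GFP control library, while the values of Pttg1-203 overlapped. These transcripts were singled out after their values were seen, they share sequence, and how salmon divided reads among them was not tested.

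**Figure D3:**
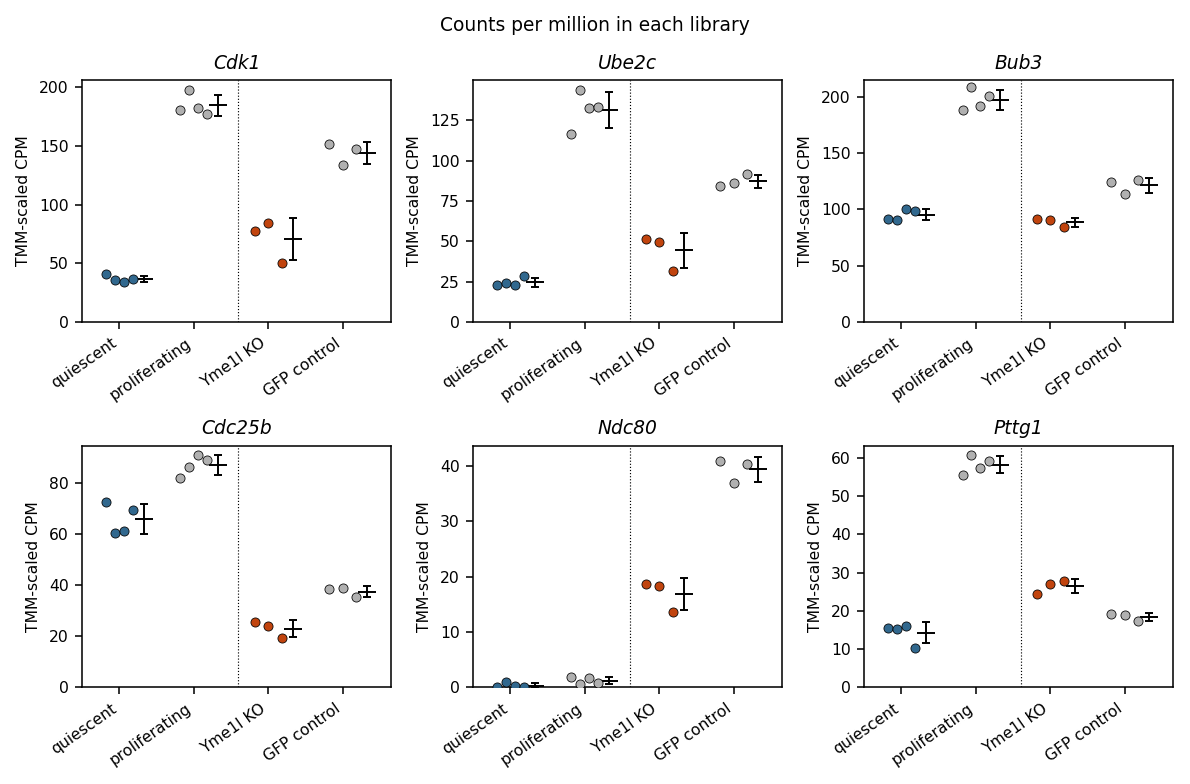
CPM of 6 mitosis genes in each library (points), with the mean and SD of each group beside the points; the dotted line parts the separately quantified tables, and each axis starts at 0. Cdk1, Ube2c, Bub3 and Cdc25b are lower in quiescent and in Yme1l KO libraries than in their partners, Ndc80 is near 0 in all quiescent and proliferating libraries, and Pttg1 is lower in quiescent libraries (10.3 to 16.1 CPM) but higher in Yme1l KO libraries (24.4 to 27.8 CPM) than in their partners.

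Centromere genes were lower in 4 of 4 tested in quiescent cells and 5 of 5 in Yme1l KO cells. Cenpa, the histone variant that marks centromeres, had 23.0, 26.2, 24.9 and 24.3 CPM in quiescent libraries, against 117, 127, 120 and 117 CPM in proliferating libraries. Cenpa had 51.0, 52.8 and 36.3 CPM in Yme1l KO libraries, against 91.8, 85.4 and 87.1 CPM in GFP control libraries. Its groups did not overlap, and its log2 fold changes were -2.28 (SE 0.06, adjusted p = 4.4e-14) and -0.91 (SE 0.12, adjusted p = 0.000153). Cenpa-202, a transcript annotated for nonsense-mediated decay, held a mean of 58.3% and 52.8% of estimated Cenpa counts in quiescent and proliferating cells. In Yme1l KO and GFP control cells Cenpa-202 held 38.3% and 41.4%, and how salmon divided these reads was not tested. Cenpm and Cenpi, parts of the inner kinetochore, had -2.40 (SE 0.12) and -2.30 (SE 0.23) in quiescent cells and -1.11 (SE 0.18) and -0.92 (SE 0.18) in Yme1l KO cells. Cenpf, a large protein of the outer kinetochore, had -1.13 (SE 0.39, adjusted p = 0.0194) with overlapping groups in quiescent cells and -0.98 (SE 0.16, adjusted p = 0.00361) in Yme1l KO cells. Cenpe, a kinetochore motor, was too sparse to test in quiescent cells and had -0.93 (SE 0.16) in Yme1l KO cells.

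Kinesins, the motors that build the spindle and move chromosomes, were lower in 7 of 7 tested in quiescent cells and 8 of 8 in Yme1l KO cells. Kif22, which pushes chromosome arms, had the highest TPM, and measured 23.1, 20.7, 24.9 and 21.1 CPM in quiescent libraries, against 118, 121, 115 and 121 CPM in proliferating libraries. Kif22 measured 43.9, 43.2 and 27.7 CPM in Yme1l KO libraries, against 86.2, 83.5 and 80.4 CPM in GFP control libraries. Replicate 3 was again the lowest Yme1l KO library, and no groups overlapped. Its log2 fold changes were -2.41 (SE 0.07, adjusted p = 5.5e-14) and -1.12 (SE 0.15, adjusted p = 0.000609).

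Kif18b and Kif2c, both of which shorten microtubules, were among the 5 largest falls in quiescent cells. Kif18b had 11.3, 9.58, 13.3 and 8.37 CPM in quiescent libraries, against 66.4, 77.1, 69.2 and 68.4 CPM in proliferating libraries, and 26.2, 27.7 and 16.2 CPM in Yme1l KO libraries, against 50.4, 49.3 and 45.0 CPM in GFP control libraries. Kif2c had 7.11, 7.01, 8.30 and 5.86 CPM in quiescent libraries, against 45.1, 43.5, 46.9 and 47.6 CPM in proliferating libraries, and 33.3, 31.1 and 21.6 CPM in Yme1l KO libraries, against 58.8, 58.3 and 59.0 CPM in GFP control libraries. For both genes the groups were apart in each comparison. Kif18b had log2 fold changes of -2.74 (SE 0.11, adjusted p = 3.66e-12) and -1.04 (SE 0.17, adjusted p = 0.00101), and Kif2c had -2.70 (SE 0.10, adjusted p = 2.4e-12) and -1.03 (SE 0.12, adjusted p = 4.94e-05).

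Kif23, a motor of the central spindle, had 1.45, 3.15, 0.814 and 0.698 CPM in quiescent libraries, against 9.60, 5.52, 6.40 and 5.28 CPM in proliferating libraries. Kif23 had 32.7, 28.8 and 20.6 CPM in Yme1l KO libraries, against 63.6, 65.3 and 62.5 CPM in GFP control libraries. The groups were apart, but the quiescent values were uneven, with replicate 2 far above replicate 4. Its log2 fold changes were -2.06 (SE 0.39, adjusted p = 0.000462) and -1.22 (SE 0.13, adjusted p = 2.64e-05). Kif20a, which works in cytokinesis, had -2.65 (SE 0.08) and -1.04 (SE 0.11). Kif11, which pushes spindle poles apart, and Kif4, a motor on chromosomes, had -1.31 (SE 0.39) and -1.09 (SE 0.37) in quiescent cells with overlapping groups, and -1.10 (SE 0.19) and -1.08 (SE 0.22) in Yme1l KO cells. Kif20b had at most 0.949 CPM in any quiescent or proliferating library and fell by 0.96 on the log2 scale in Yme1l KO cells (SE 0.16).

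Spindle assembly factors and the centriole kinase were lower in 5 of 6 in quiescent cells and 6 of 6 in Yme1l KO cells. Tacc3, which stabilizes spindle fibres, had 21.7, 18.2, 17.1 and 20.7 CPM in quiescent libraries, against 77.6, 81.7, 80.8 and 82.4 CPM in proliferating libraries. Tacc3 had 49.5, 44.2 and 37.2 CPM in Yme1l KO libraries, against 82.9, 83.7 and 85.7 CPM in GFP control libraries. Control values were even and all others lay below them, with log2 fold changes of -2.06 (SE 0.08, adjusted p = 1.59e-12) and -0.94 (SE 0.08, adjusted p = 1.67e-06). Plk4, which starts centriole duplication, had 1.616, 3.39, 1.302 and 1.26 CPM in quiescent libraries, against 3.27, 3.75, 3.04 and 1.84 CPM in proliferating libraries. Plk4 had 26.7, 31.5 and 16.9 CPM in Yme1l KO libraries, against 52.1, 54.5 and 49.97 CPM in GFP control libraries. In the first pair quiescent replicate 2 lay above proliferating replicate 5, and the second pair did not overlap. The log2 fold change of Plk4 was -0.61 in quiescent cells (SE 0.35, adjusted p = 0.138) and -1.06 in Yme1l KO cells (SE 0.19, adjusted p = 0.00299). Without quiescent replicate 2 it was -1.01 (adjusted p = 0.0145). The retained-intron transcript Plk4-209 held a mean of 80.8% and 69.9% of estimated Plk4 counts in quiescent and proliferating cells. In Yme1l KO and GFP control cells the coding transcript Plk4-201 held most, at 82.3% and 54.3%. How salmon divided these reads was not tested. Tpx2, which activates Aurka at the spindle, Nusap1, which bundles microtubules, Hmmr, a hyaluronan receptor that also binds the spindle, and Dlgap5, a factor of spindle fibres, had log2 fold changes of -2.16 to -1.30 in quiescent cells and -1.13 to -0.99 in Yme1l KO cells.

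Cytokinesis genes were lower in 4 of 4 in both comparisons. Racgap1, which with Kif23 forms centralspindlin, had 49.5, 43.8, 46.4 and 48.3 CPM in quiescent libraries, against 187, 193, 181 and 204 CPM in proliferating libraries. Racgap1 had 111, 114 and 69.7 CPM in Yme1l KO libraries, against 212, 216 and 214 CPM in GFP control libraries. Replicates 1 and 2 of Yme1l KO lay together and replicate 3 well below them. Its log2 fold changes were -2.03 (SE 0.06, adjusted p = 7.01e-14) and -1.12 (SE 0.19, adjusted p = 0.00484). Prc1, which bundles the central spindle, had -1.54 (SE 0.16) and -1.09 (SE 0.19), Ect2, which activates RhoA at the cleavage site, had -1.22 (SE 0.35) and -0.98 (SE 0.12), and anillin (Anln), a scaffold of the contractile ring, had -1.13 (SE 0.29) and -0.91 (SE 0.17).

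Condensin I and its companions were lower in 4 of 6 tested in quiescent cells and in 7 of 7 in Yme1l KO cells. Top2a (ENSMUSG00000020914, chr11:98883769-98915015, minus strand), topoisomerase II of dividing cells, had the highest TPM of the group as a mean over all 14 libraries, although Ncapd2 was above it in quiescent and in proliferating cells. It had 10.99, 16.1, 4.07 and 7.40 CPM in quiescent libraries, against 39.5, 17.8, 36.5 and 16.6 CPM in proliferating libraries. It had 342, 333 and 210 CPM in Yme1l KO libraries, against 631, 606 and 637 CPM in GFP control libraries. Quiescent replicate 2 nearly reached proliferating replicate 5, whereas the Yme1l KO and GFP control values were far apart. Its log2 fold changes were -1.49 in quiescent cells (SE 0.49, adjusted p = 0.0331) and -1.08 in Yme1l KO cells (SE 0.20, adjusted p = 0.0091). The quiescent call was lost without any of 5 libraries in turn, which are quiescent replicates 1, 3 and 4 and proliferating replicates 1 and 4, with adjusted p of 0.0698 to 0.0973.

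Smc4, an ATPase of condensin, had 1.94, 3.97, 0.976 and 1.53 CPM in quiescent libraries, against 5.48, 1.44, 4.56 and 1.26 CPM in proliferating libraries. Smc4 had 115, 114 and 79.2 CPM in Yme1l KO libraries, against 186, 184 and 188 CPM in GFP control libraries. The first groups were interleaved and the second were apart. The log2 fold change was -0.56 in quiescent cells (SE 0.57, adjusted p = 0.415) and -0.86 in Yme1l KO cells (SE 0.13, adjusted p = 0.002). Its partner Smc2 had -1.58 (SE 0.70, adjusted p = 0.0752) and -0.96 (SE 0.15, adjusted p = 0.00186). Ncapd2 and Ncaph, which with Ncapg complete condensin I, had -2.15 (SE 0.05) and -2.35 (SE 0.10) in quiescent cells and -0.91 (SE 0.14) and -0.82 (SE 0.14) in Yme1l KO cells. Ncapg was too sparse in quiescent cells and had -1.04 (SE 0.14) in Yme1l KO cells. Mki67, the proliferation marker that coats mitotic chromosomes, had 4.36, 5.37, 1.63 and 3.07 CPM in quiescent libraries, against 20.1, 5.30, 19.3 and 5.28 CPM in proliferating libraries. Mki67 had 404, 417 and 253 CPM in Yme1l KO libraries, against 751, 765 and 744 CPM in GFP control libraries. Proliferating replicates 1 and 4 were far above replicates 2 and 5, and quiescent replicate 2 lay level with the lower pair. Mki67 was added to the genes given by library after its values were seen. The log2 fold change of Mki67 was -1.77 in quiescent cells (SE 0.63, adjusted p = 0.042) and -1.07 in Yme1l KO cells (SE 0.21, adjusted p = 0.0102).

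The members that were sparse or uneven in the quiescent and proliferating libraries were mostly those with little G and C in their transcripts. The 29 members of lower GC content (low-GC set, 38.0% to 47.7%) had a median level of 4.94 CPM in proliferating cells and 83.3 CPM in GFP control cells, although both cultures were kept in FGF and EGF. The 29 of higher GC content (high-GC set, 47.9% to 56.6%) had 87.3 and 84.1 CPM. These levels come from tables quantified separately. The SD of log2(CPM + 0.5) among proliferating libraries had a median of 0.42 in the low-GC set and 0.069 in the high-GC set, while among GFP control libraries it was 0.045 and 0.047. The median log2 fold change was -1.76 (23 tested) in the low-GC set and -2.35 (29 tested) in the high-GC set in quiescent cells, and -1.04 in both sets in Yme1l KO cells. With each library's trend with GC content removed, the quiescent medians were -1.88 and -2.30 and 51 of 52 members were lower. The share of all genes lower in that fit was not computed. All 3 members not called in quiescent cells, and all 6 with too few counts, belonged to the low-GC set. Leaving out libraries in turn, 6 of the 49 calls in quiescent cells were lost without at least 1 of them. They were Bub1 and Top2a (without quiescent replicate 1, 3 or 4 or proliferating replicate 1 or 4), Mki67 (without those or quiescent replicate 2), Cenpf (without quiescent replicate 4 or proliferating replicate 1 or 4), Kif4 (without quiescent replicate 3 or 4 or proliferating replicate 1) and Nusap1 (without quiescent replicate 1), with adjusted p of 0.0504 to 0.121, and 5 of the 6 were in the low-GC set. Smc2 passed without proliferating replicate 2 or 5 (-1.83 and -1.84). Across members, GC content had a Pearson r of -0.52 with the fold change in quiescent cells (n = 52) and -0.0071 with that in Yme1l KO cells (n = 58), as a description, since all members share the same libraries. Transcript length had a Pearson r of 0.39 with the fold change in quiescent cells (n = 52). Whether GC content or length goes with these values was not tested. What set these levels apart was not tested.

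**Figure D4:**
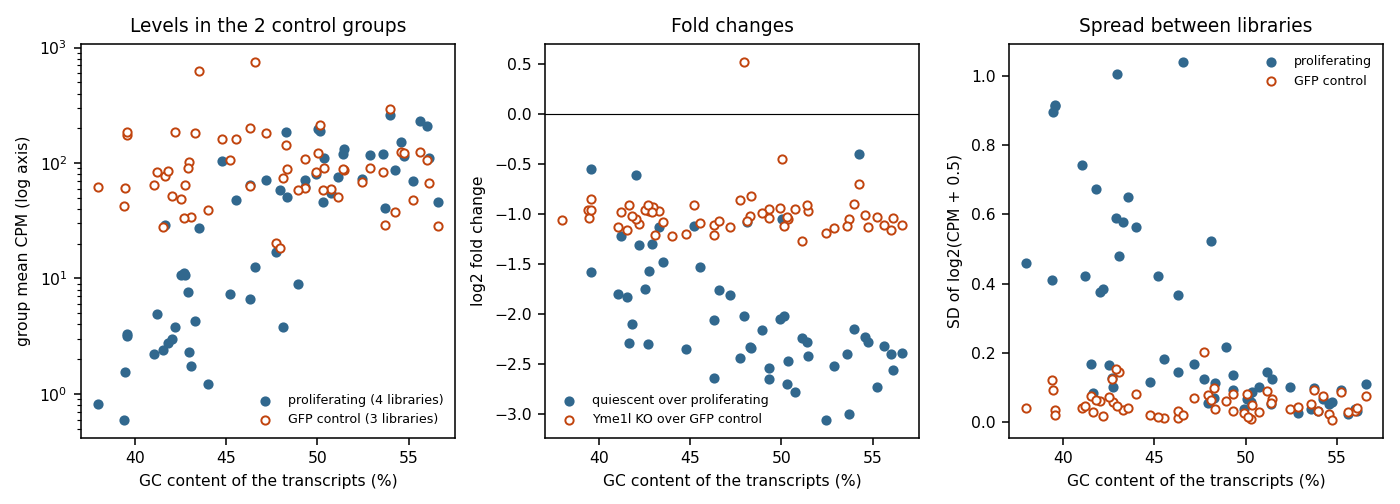
GC content of the transcripts of each mitosis gene (x axis, %) against its mean CPM in proliferating and GFP control cells on a log axis (left), its log2 fold change in both comparisons (middle) and the SD of log2(CPM + 0.5) among the libraries of each control group (right). Below about 48% GC, proliferating levels are lower and more scattered, with a median SD of 0.42, while GFP control levels and Yme1l KO fold changes show no such slope.

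The quiescence effect was more negative than the Yme1l KO effect for 35 of 58 members (quasi-likelihood test of the difference between the effects over all 14 libraries, adjusted p under 0.05), where 21% of the 13580 genes tested differed that way. For 22 members the difference did not pass the test, and for 1, Cdc25b, the quiescence effect was less negative, where 18% of genes differed that way. Of the 35, 27 belonged to the high-GC set and 8 to the low-GC set. The largest difference was that of Pttg1, at -2.50 (SE 0.16, adjusted p = 7.5e-11), followed by Spc24 at -1.90 (SE 0.17, adjusted p = 2.36e-08), Aurkb at -1.82 (SE 0.16, adjusted p = 1.59e-08), Birc5 at -1.78 (SE 0.21, adjusted p = 1.6e-06) and Kif18b at -1.65 (SE 0.23, adjusted p = 2.25e-05). Cdc25b differed by 0.35 (SE 0.13, adjusted p = 0.0443), and this call was lost, with adjusted p of 0.0531 to 0.146, without quiescent replicate 1 or 4, proliferating replicate 1, 2 or 5, Yme1l KO replicate 3, or GFP control replicate 1 or 2. The difference of Nuf2, -0.55 (SE 0.19, adjusted p = 0.0287), was lost without any of 8 libraries in turn (adjusted p of 0.0507 to 0.0713), which are quiescent replicates 1, 3 and 4, proliferating replicate 5, Yme1l KO replicates 1 and 2, and GFP control replicates 1 and 2. Differences of Kif23 (-1.49) and Sgo1 (-1.92) passed without quiescent replicate 2, and that of Prc1 (-0.60) without Yme1l KO replicate 3. The 6 members too sparse for the quiescent comparison had differences with an SE of 0.60 to 0.88, none of which passed.

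Other genes of the division machinery were counted in lists chosen with earlier results of these data known. Over all genes tested, 35.5% were lower and 29.9% higher in quiescent cells, and 26.2% were lower and 25.4% higher in Yme1l KO cells. Of 30 other kinetochore and centromere genes, 22 of 26 tested were lower in quiescent cells (median log2 fold change -1.53) and 28 of 30 in Yme1l KO cells (median -0.84), and none was higher. The largest falls there were Ska1, which helps the Ndc80 complex hold microtubules, at -3.44 in quiescent cells (SE 0.26), and Cenph, of the inner kinetochore, at -1.27 in Yme1l KO cells (SE 0.16). The anaphase-promoting complex was closer to all genes, with 13 of 17 lower and 1 higher in quiescent cells (median -0.37) and 11 lower and 1 higher in Yme1l KO cells (median -0.20). Its inhibitor Fbxo5 had -1.68 (SE 0.29) and -0.99 (SE 0.13). The subunit Cdc27 was higher in quiescent cells, at 1.15 (SE 0.36), and the subunit Anapc2 was higher in Yme1l KO cells, at 0.18 (SE 0.05).

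Condensin II, which acts beside condensin I, was lower in 2 of 2 tested genes in quiescent cells (median -0.85) and 3 of 3 in Yme1l KO cells (median -0.72). Cohesin, which ties sister chromatids together, had 1 of 11 lower and none higher in quiescent cells (median 0.12) and 9 of 14 lower and 1 higher in Yme1l KO cells (median -0.30). Its 14 genes summed to 217 to 305 CPM in quiescent libraries, against 267 to 307 CPM in proliferating libraries, and to 1574 to 1701 CPM in Yme1l KO libraries, against 1961 to 1990 CPM in GFP control libraries, and at low counts the quiescent SE reached 0.56 (Smc3). The cohesin gene lower in quiescent cells was Cdca5, or sororin, at -2.80 (SE 0.18), and the one higher in Yme1l KO cells was Mau2, a cohesin loader, at 0.37 (SE 0.06). Of the further kinesin and spindle genes, 14 of 21 were lower and 1 higher in quiescent cells, and 16 of 22 lower and 2 higher in Yme1l KO cells. The higher ones were Clasp2, which steadies microtubule ends, at 0.52 (SE 0.18) and 0.36 (SE 0.05), and Psrc1, another microtubule-binding protein, at 0.34 in Yme1l KO cells (SE 0.07). Of the centriole and centrosome genes, 7 of 11 were lower and 1 higher in quiescent cells, and 11 of 14 lower and 1 higher in Yme1l KO cells, the higher one being Cdk5rap2 both times. Of 14 further entry and exit regulators tested in quiescent cells, 12 were lower and 1, the phosphatase gene Cdc14a, was higher, and in Yme1l KO cells 11 of 15 were lower and none higher. Melk, a kinase of dividing cells, led this list both times, at -3.09 (SE 0.14) and -1.29 (SE 0.12). Of the other cytokinesis genes, 7 of 11 were lower and 1 higher in quiescent cells, and 6 of 12 lower and 1 higher in Yme1l KO cells, the higher one being the ciliary kinesin gene Kif3b both times. All these counts stand beside 35.5% lower and 29.9% higher over all genes in quiescent cells. In Yme1l KO cells the shares over all genes were 26.2% lower and 25.4% higher.

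Among regulators that act on late cell cycle promoters, 11 of 17 were lower and 2 higher in quiescent cells, and 12 of 17 lower and 3 higher in Yme1l KO cells. The largest falls were those of E2f2 in quiescent cells, at -3.48 (SE 0.23), and of E2f8 in Yme1l KO cells, at -1.22 (SE 0.10). E2f7, a repressor of the E2F family, had -3.38 (SE 0.19) and -1.16 (SE 0.19), and Mybl2, which joins MuvB as an activator, had -3.30 (SE 0.10) and -1.15 (SE 0.11). In the retinoblastoma family, which restrains E2F, Rbl1 was lower, at -1.49 (SE 0.28) and -1.09 (SE 0.11), while 2 genes were higher in both, with Rb1 at 1.43 (SE 0.28, adjusted p = 0.000292) and 0.31 (SE 0.07, adjusted p = 0.00254) and Rbl2, the pocket protein p130, at 0.36 (SE 0.11, adjusted p = 0.0104) and 0.68 (SE 0.07, adjusted p = 3.74e-06). The third gene higher in Yme1l KO cells was Lin52, a MuvB subunit, at 0.36 (SE 0.13). Of the NF-Y subunits, 2 of 3 were lower in each comparison, with Nfya at -0.73 (SE 0.06) and -0.22 (SE 0.06). Over all genes tested, 35.5% were lower and 29.9% higher in quiescent cells, and 26.2% were lower and 25.4% higher in Yme1l KO cells. For comparison, DNA replication genes were lower in 49 of 52 tested in quiescent cells (median -2.34) and in 53 of 53 in Yme1l KO cells (median -0.97), while 1, Rpa1, was higher in quiescent cells.

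In the authors' deposited table for the first comparison, whose fold changes run proliferating over quiescent, 47 of 58 members had a positive value with an adjusted p under 0.05 and none a negative one. In their table for the second, Yme1l KO over GFP control, 56 had a negative value and 1 a positive one at that threshold. The share of all genes called in either deposited table was not computed. Their log2 fold changes of Cdk1 were 2.26 (SE 0.09) for proliferating over quiescent and -0.94 (SE 0.15) for Yme1l KO over GFP control.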

How the data were processed

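Poly-A RNA of 14 libraries was compared within 2 pairs of groups, each quantified by the authors in tables of its own, with the group taken from the labels and columns matched by library ID. The authors deposited salmon estimated counts per gene and per transcript, counts scaled from TPM, and TPM values. Per the submitters' processing notes the build was GRCm39, and DESeq2 1.30.1 in R 4.0.3 was used. The tables of tests deposited by the authors give a log2 fold change, its standard error and an adjusted p-value per gene, and salmon settings and annotation release are not given in the sources used here. Estimated counts were rounded and went into edgeR 4.0.16 under R 4.3.3 with TMM, filterByExpr by group, a robust quasi-likelihood fit and Benjamini-Hochberg adjustment over all genes tested. SE was computed by dividing the size of the log2 fold change by the root of its F statistic. Each comparison had its own fit, and the difference between the effects was tested in a fit of all 14 libraries. Alternatives used limma 3.58.1 and DESeq2 1.42.0. The procedure was tested on simulated data.

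Members, roles, lists, promoter words and tests were chosen with earlier results of these data known. Values in every library are given, by rule, for the gene of highest TPM in each of 10 roles, the 5 largest and 3 smallest fold changes in each comparison, members called in opposite directions and the 5 largest called differences between the effects. Of each further list, genes with the largest fold change and those against most of their list may be named. Mybl2, Rbl1 and Smc3 were named outside this rule. GC content came from GENCODE vM21 transcripts by gene ID. Alternatives covered scaling, filters, other count tables, other tests, a replicate block and leaving out each library. No libraries agreed within sampling noise. Same-numbered libraries did not deviate together (correlations of -0.33 to 0.00038), so the main fits did not pair them by number. Libraries of different number had correlations of -0.33 to 0.46, the highest between quiescent replicate 2 and proliferating replicate 1. So few pairs cannot settle whether libraries shared a culture.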

Additional observations from a re-analysis of the deposited data

Results flagged for a closer look

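In 46 groups of 4 libraries, each holding the values of a mitosis gene given by library, the library farthest out was set against the others, and 2 stood apart by Dixon's criterion at the 95% level. Chance alone flags about 1 in 20 such groups. Plk4 measured 3.387 CPM in quiescent replicate 2, against 1.256 to 1.616 CPM in the other quiescent libraries. Pttg1 measured 10.33 CPM in quiescent replicate 4, against 15.3 to 16.11 CPM in the other quiescent libraries.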

How the results depend on the processing

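The number of members lower in quiescent cells was 49 of 52 tested, 40 of 45 with TPM-scaled counts and 52 of 58 with no filter on low counts, and 44 to 51 when a library was left out. The number lower in Yme1l KO cells was 56 or 57 and the number higher was 1 in all alternatives run. The quiescence effect was more negative for 30 to 35 members in the other alternatives and 34 to 37 without a library. It was less negative for 1 member, Cdc25b, and for 0 with library size alone, TPM-scaled counts, limma on log2(TPM + 0.1) and the replicate block, and for 0 to 1 without a library. Shares of all genes called were not computed under these alternatives. With the replicate number as a block, 42 members were lower in quiescent cells and 57 in Yme1l KO cells, and 32 had a more negative quiescence effect. In that fit quiescent replicate 3 and proliferating replicate 5 had no partner of the same number, so they added nothing to the quiescence effect. For the genes chosen by rule to be given by library and the 5 largest differences, 949 of 959 alternative values kept their call, 8 lost it, 2 gained it and none changed sign. This leaves out Mki67, Bub1, Cenpf, Kif4, Nusap1, Smc2 and the smaller differences, whose calls without a library are given with the results. Top2a lost its quiescent call with no filter (adjusted p = 0.0576) and the block (0.12), Kif23 with TPM-scaled counts (0.13), and Plk4 gained one with the GC trend removed (0.0131). TPM-scaled counts and the GC trend were added after seeing the data, and the cause of these changes was not tested. Library size alone moved the median log2 fold change of all genes to -0.15 in quiescent cells, against -0.01. Length-scaled counts equalled the counts, so that alternative could not change a call, although its values are among those counted above. Promoter shares with the window cut to 150 bases before the start were 70.8% (CCAAT), 83.3% (CHR) and 12.5% (E2F). Low counts of low-GC members limit the quiescent comparison.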
